A study of Homo sapiens with 18 samples.

Results

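The genes described here code for thioredoxin (TXN), thioredoxin reductase (TXNRD1), sulfiredoxin (SRXN1), the thioredoxin-interacting protein (TXNIP) and the peroxiredoxins PRDX1 to PRDX6. They were chosen by gene symbol, and all 10 were found among the 23411 symbols counted in every library. Peroxiredoxins are abundant enzymes that reduce hydrogen peroxide with a reactive cysteine. In the typical peroxiredoxins the oxidized cysteine is returned to its working form by thioredoxin, which is recharged by thioredoxin reductase with electrons from NADPH. Sulfiredoxin repairs peroxiredoxins that were overoxidized by peroxide, while TXNIP binds thioredoxin and restrains it. In the retinal pigment epithelium, a tissue exposed to light and oxygen, this system is part of the defense against peroxides, and several of its genes are known targets of the transcription factor NRF2.

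The cells were ARPE-19, a human retinal pigment epithelium line that arose spontaneously in culture. Control cells were transduced with a lentiviral Cas9 vector lacking a guide RNA. NRF2 ΔC cells carried the vector with a guide that cuts in the final exon of NFE2L2, which encodes NRF2. They were a single clone, in which both alleles encode an NRF2 protein that ends before its C-terminus. Each line was left untreated (water alone), treated with 1 mM NACET, the ethyl ester of N-acetylcysteine, or treated with 0.2 mM H2O2, a peroxide used as a known NRF2 activator. Each of the 6 groups had 3 libraries, 18 in all. The treatment lasted 8 h, after 40 h of culture in 10% serum, by the paper and the series text. By the labels of the samples it lasted 2 h and followed 22 h in 1% serum. Lines, agents and doses are the same in both. The labels do not say whether the replicates were separate cultures, so the p-values measure the spread between these libraries. A difference from the ΔC line rests on 1 clone, and the effect of the edit and of that clone cannot be told apart.

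The depth was 16673306 to 25951154 counts on genes per library (median 21447433.5); the lowest count of any of the 10 genes in a library was 237. Levels are given in CPM, the standard depth-scaled count, with library sizes scaled by TMM. Of the epithelial markers, KRT8 (428 to 678 CPM), KRT18 (260 to 507), OTX2 (105 to 180) and MITF (64.9 to 187) were present in each library, whereas RPE65, the visual cycle isomerase that defines mature pigment epithelium, had at most 1 count and none in 14 libraries. TTR had no count in 15 libraries, and TYR and RLBP1 stayed under 1 CPM. Other markers of pigment epithelium were low but present in each library, namely LRAT, a visual cycle enzyme (2.43 to 6.86 CPM), PMEL (1.52 to 2.97), SERPINF1 (0.718 to 1.78) and BEST1 (0.184 to 3.54). With H2O2, 8 of the 12 epithelial markers were tested in each line, and 2 had a positive log2 fold change. The median was -0.33 in control and -0.41 in ΔC cells. BEST1 was called higher in both lines, and 2 markers, LRAT and MITF, were called lower in ΔC cells. Of all genes, 6.33% were called in control and 9.81% in ΔC cells. With NACET no marker was called in either line, where 2.75% and 1.39% of all genes were called. The median log2 fold changes were -0.10 and -0.175, and 3 were positive in each line. MITF had 114 to 138 CPM with NACET in control cells, below the untreated 145 to 187. In ΔC cells it had 64.9 to 85.3 CPM, below 113 to 152. Groups did not overlap for 26.5% and 25% of all genes. Markers of leukocytes (PTPRC) and endothelium (PECAM1, CDH5) did not exceed 3 counts in a library, while NRL, a rod transcription factor, ranged from 0.293 to 0.975 CPM. NFE2L2 itself was counted at 102 to 152 CPM across the libraries and was not called in any comparison. Its edit alters the protein and need not lower the count, so the count does not check the genotype labels.

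NRF2 binds, with a small MAF protein, the antioxidant response element, whose core is written TGACNNNGC or TGAGNNNGC. Both spellings were searched on both strands from 1000 bases before to 50 bases after each annotated start of a protein-coding transcript in GRCh37, the build of hg19. The 10 genes had 25 such starts. One or both of the 2 cores was found for each of the 10 genes, TGACNNNGC for 7 and TGAGNNNGC for 8. Of all 55706 starts of that kind, 34.5% held TGACNNNGC, 45.5% held TGAGNNNGC and 63.9% held either, so a match is common and marks no site. These shares are per start, whereas a gene was counted if any of its starts held a core. TXNRD1 had 7 starts and PRDX1 had 5, so the counts of genes and the shares are not like for like. The spellings differ in 1 base, C or G after TGA, so a match to one is never a match to the other on the same strand. All windows of TXN, SRXN1 and TXNIP are shown, with 1 of the 2 of PRDX1 and the 4 of the 8 of TXNRD1 that lie nearest to a start, because the rises and falls described next can be set beside these letters. Each is 30 bases of the reference, read on the strand where the core has the written orientation, with the core in capitals.
TXN, chr9:113019349-113019378, plus strand, 581 bases before the start: ctgctccagctTGACACAGCggtttagtgc
TXN, chr9:113019330-113019359, plus strand, 562 bases before the start: attttcactgcTGAGCCCGCtgctccagct
TXNRD1, chr12:104609448-104609477, plus strand, 99 bases before the upstream start: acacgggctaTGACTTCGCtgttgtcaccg
TXNRD1, chr12:104609539-104609568, minus strand, 8 bases before the upstream start: cctgtgggaacTGACGGAGCcgaaggacgc
TXNRD1, chr12:104680698-104680727, minus strand, 60 bases before a downstream start: cagagtcagaaTGACAAAGCagaaatccac
TXNRD1, chr12:104680602-104680631, plus strand, 47 bases before a downstream start: ggggcggctaTGAGCAGGCagaggatgtgg
SRXN1, chr20:634097-634126, minus strand, 272 bases before the start: aaactcacccTGAGTCAGCccgcccgggcg
SRXN1, chr20:634109-634138, plus strand, 284 bases before the start: ctgactcagggTGAGTTTGCaggtcgcggg
SRXN1, chr20:634219-634248, plus strand, 394 bases before the start: cccagccagggTGAGTCGGCaaagcccgcg
TXNIP, chr1:145438565-145438594, plus strand, 731 bases before the downstream start: gctttttctcTGACTTCGCttagtgtaacc
TXNIP, chr1:145438328-145438357, minus strand, 152 bases before the upstream start: cgaccaatcagTGAGATCGCtgtggcgcgt
PRDX1, chr1:45987678-45987707, plus strand, 87 bases before a downstream start: ccccgccggaaTGACTCGGCgctttccctc
TXNIP, whose level fell with NACET in control cells, and the peroxiredoxins, none of which was called with either treatment, held such letters as well as the 3 genes that rose.

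NACET raised thioredoxin, its reductase and sulfiredoxin in control cells and lowered TXNIP, while no peroxiredoxin was called. Thus 4 of the 10 genes were called, where a call needs an adjusted p under 0.05 in edgeR's quasi-likelihood test over all genes and a fold change of 0.6 or more, up or down, on the log2 scale. Of the 13696 genes tested, 2.75% were called, 1.39% as higher and 1.35% as lower. In the 4 called genes the treated and untreated libraries did not overlap, which held for 26.5% of all genes in this comparison. The median log2 fold change was 0.07 over the 10 genes and -0.01 over all genes tested. DESeq2 called the same 4 genes, and so did a fit with the replicate number as a block. Of all genes these called 3.17% and 7.49%. The block fit leaves 2 residual degrees of freedom per gene and borrows 382 from the other genes.

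TXNRD1 lies at chr12:104609557-104744085 on the plus strand and codes for the cytosolic reductase, a selenoprotein. In untreated control cells its level was 919, 1098 and 1008 CPM in replicates 1 to 3. With NACET it was 2974, 3194 and 2978 CPM, so each treated library was far above each untreated one. This was a 3.05-fold rise (log2 fold change 1.61 ± 0.12 SE, adjusted p = 0.00195 from edgeR). The mean of the treated group, 3048 ± 126 CPM (SD, n = 3), was the highest of TXNRD1 in any group.

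SRXN1 lies at chr20:627259-633844 on the minus strand. It had 84.0, 102 and 108 CPM without treatment. After NACET the 3 libraries held 272, 324 and 337 CPM, again without overlap. The rise was 3.20-fold (log2 1.68 ± 0.13 SE, edgeR adjusted p = 0.00252).

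TXN lies at chr9:113006090-113018787 on the minus strand. Its untreated levels were 85.2, 119 and 122 CPM and its levels with NACET 154, 198 and 229 CPM. Replicate 1 was lowest in both groups. The fitted rise was 1.79-fold (log2 0.84 ± 0.18 SE) and passed narrowly, at an adjusted p of 0.0475 with edgeR. It did not pass in any of the 6 fits with a library removed (log2 0.69 to 0.98, adjusted p 0.0581 to 0.202). Those fits do not use the replicate number. Within replicate numbers 1 to 3 the log2 ratios of TXN were 0.86, 0.73 and 0.91.

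**Figure D1:**
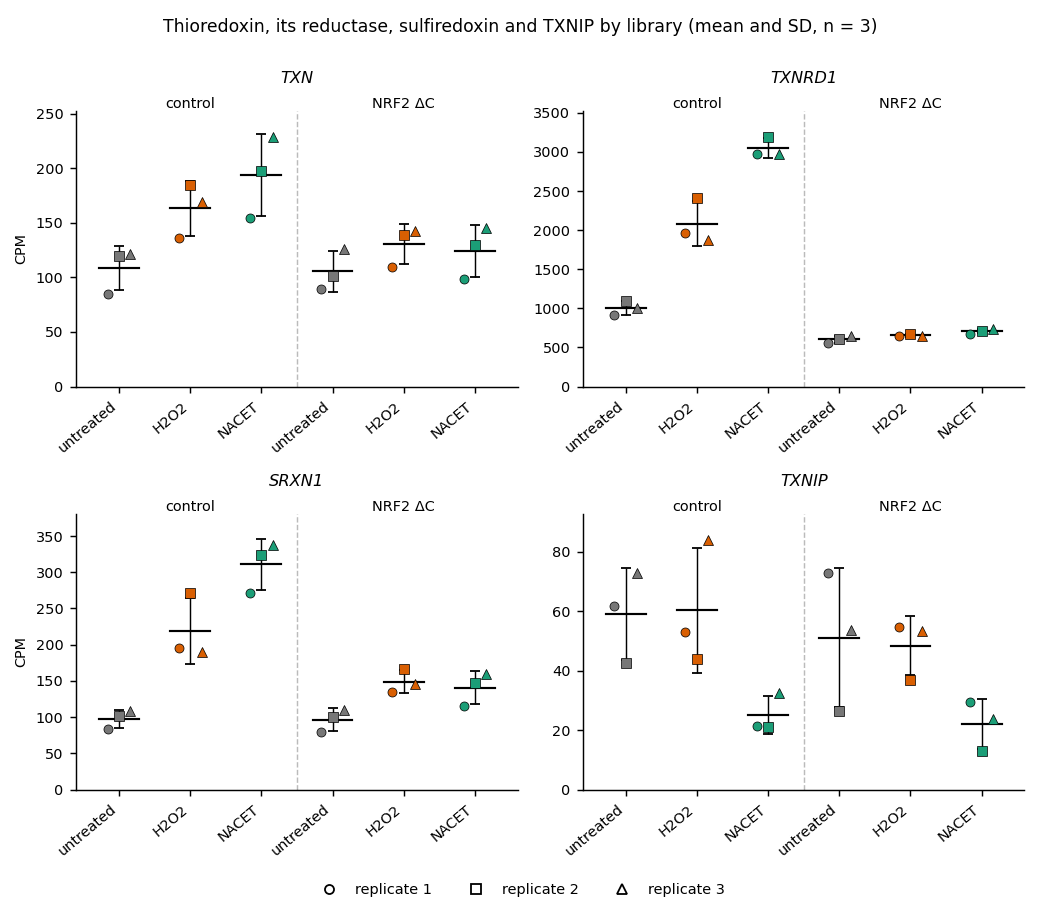
CPM of TXN, TXNRD1, SRXN1 and TXNIP in each of the 18 libraries, by treatment on the x axis and cell line on either side of the dashed line; points are libraries, with shapes for replicate numbers, and bars are the mean and SD of 3. TXNRD1 reaches 2974 to 3194 CPM with NACET in control cells and stays at 677 to 733 CPM with NACET in NRF2 ΔC cells. The TXNIP mean is lower with NACET on both sides, with overlapping ranges in NRF2 ΔC cells.

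TXNIP lies at chr1:145438490-145442635 on the plus strand. Besides binding thioredoxin, it limits glucose uptake. In untreated control cells it had 61.8, 42.5 and 73.0 CPM, and with NACET 21.3, 21.2 and 32.4 CPM. The highest treated library was below the lowest untreated one. The level fell to 0.43-fold (log2 fold change -1.23 ± 0.23 SE, edgeR adjusted p = 0.0338). The call held only in the fit without NACET replicate 3, and the other 5 fits with a library removed gave adjusted p above the threshold (0.0212 to 0.175 over all 6, log2 -1.46 to -1.04). Those fits do not use the replicate number either. Within replicate numbers 1 to 3 the log2 ratios of TXNIP were -1.535, -1.001 and -1.171.

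H2O2 raised TXNRD1 and SRXN1 in control cells, while TXNIP overlapped its untreated level. This comparison shares the untreated libraries with the NACET comparison, so the 2 are not independent. With H2O2 2 of the 10 genes were called, both higher, where 6.33% of the 13691 genes tested were called and 2.96% were called as higher. TXNRD1 had 1960, 2412 and 1876 CPM with H2O2, a 2.07-fold rise with no overlap (log2 1.05 ± 0.13 SE, edgeR adjusted p = 0.00397). SRXN1 had 195, 272 and 190 CPM, a 2.24-fold rise without overlap (log2 1.16 ± 0.16 SE, adjusted p = 0.00493). For both genes replicate 2 was the highest library of the group. TXN was at 136, 185 and 169 CPM, all above the untreated libraries, with a log2 fold change of 0.59 ± 0.16 SE at an adjusted p of 0.0464, just short of the fold limit. TXNIP was at 53.0, 44.1 and 84.0 CPM, inside and around the untreated range (log2 0.03 ± 0.26 SE, adjusted p = 0.947).

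NACET and H2O2 were also set against each other, at their single doses of 1 mM and 0.2 mM. In control cells TXNIP was called lower with NACET (log2 -1.25 ± 0.26 SE, edgeR adjusted p = 0.0357), the only one of the 10 genes, where 3.67% of 13581 genes were called. This held only without NACET replicate 3 among the 6 fits with a library removed (log2 -1.49 to -0.93, adjusted p 0.0171 to 0.149). The TXNRD1 level was 1.49-fold higher with NACET than with H2O2, and its libraries did not overlap (log2 0.57 ± 0.13 SE, adjusted p = 0.0423), a difference under the fold limit. SRXN1 differed by a log2 value of 0.53 ± 0.16 SE (adjusted p = 0.0885), and the highest H2O2 library met the lowest NACET library at 272 CPM.

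In NRF2 ΔC cells sulfiredoxin was called higher with H2O2 and not with NACET, though both treated groups lay above the untreated one. Neither the reductase nor thioredoxin was called with either agent. The TXNIP mean was lower with NACET, a difference that passed only when the replicate number was taken into account or with DESeq2. With NACET none of the 10 genes was called, where 1.39% of 13542 genes were called. Of the 10 genes, 2 had an unadjusted p under 0.05 in edgeR, and DESeq2 called 1 (TXNIP), where it called 3.14% of genes. With H2O2 1 of the 10 genes was called (SRXN1), where 9.81% of 13543 genes were called and 4.26% were called as higher, so that share is close to that of all genes.

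TXNRD1 in ΔC cells had 554, 605 and 646 CPM untreated, 677, 709 and 733 CPM with NACET and 647, 675 and 641 CPM with H2O2. The NACET libraries were all above the untreated ones, but the difference was small (log2 0.21 ± 0.11 SE, edgeR adjusted p = 0.357). With H2O2 the log2 fold change was 0.10 ± 0.13 SE (adjusted p = 0.637), and the ranges overlapped.

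SRXN1 in ΔC cells began at 79.1, 100 and 110 CPM, which overlapped the untreated control cells. It reached 135, 167 and 146 CPM with H2O2, all above the untreated libraries, a 1.52-fold rise (log2 0.60 ± 0.16 SE, edgeR adjusted p = 0.0425). This call sat at the fold limit and held only without H2O2 replicate 1 among the 6 fits with a library removed (log2 0.50 to 0.72, adjusted p 0.0167 to 0.182). With NACET SRXN1 had 115, 147 and 160 CPM, likewise above the untreated range (log2 0.52 ± 0.17 SE, adjusted p = 0.149). Within replicate numbers 1 to 3 its log2 ratios were 0.54, 0.55 and 0.54 with NACET and 0.77, 0.74 and 0.40 with H2O2. Against H2O2 the NACET level differed by a log2 value of -0.06, with overlapping ranges.

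TXN in ΔC cells had 89.0, 102 and 126 CPM untreated, 98.2, 130 and 145 CPM with NACET and 109, 139 and 143 CPM with H2O2. The 3 ranges overlapped. The log2 fold changes were 0.22 ± 0.18 SE and 0.28 ± 0.17 SE, with adjusted p = 0.577 and 0.303.

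TXNIP in ΔC cells varied widely between replicates, with 73.0, 26.4 and 53.7 CPM untreated and 29.4, 13.0 and 23.7 CPM with NACET. Replicate 2 was the lowest library in both groups, and the untreated replicate 2 lay below the treated replicate 1. The log2 fold change was -1.22 ± 0.40 SE (edgeR adjusted p = 0.157). Within each replicate number the treated library was lower, with log2 ratios of -1.31, -1.02 and -1.18. Libraries with the same number deviated together in each line, and with the number as a block the fall was called (log2 -1.20, adjusted p = 3.51e-08 with edgeR, where 8.82% of genes were called). That fit leaves 2 residual degrees of freedom per gene and borrows 14.8 from the other genes. With H2O2 TXNIP had 54.8, 37.04 and 53.4 CPM (log2 -0.10 ± 0.32 SE, adjusted p = 0.861), and against these libraries the NACET level was lower without overlap (log2 -1.11 ± 0.29 SE, adjusted p = 0.0523). The block made that fall a call (log2 -1.14, edgeR adjusted p = 8.28e-09), the only one among the 10 genes. Of all genes, 15.5% were called with the block and 8.31% without it. This fit too leaves 2 residual degrees of freedom per gene, and it borrows 18.8 from the other genes.

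**Figure D2:**
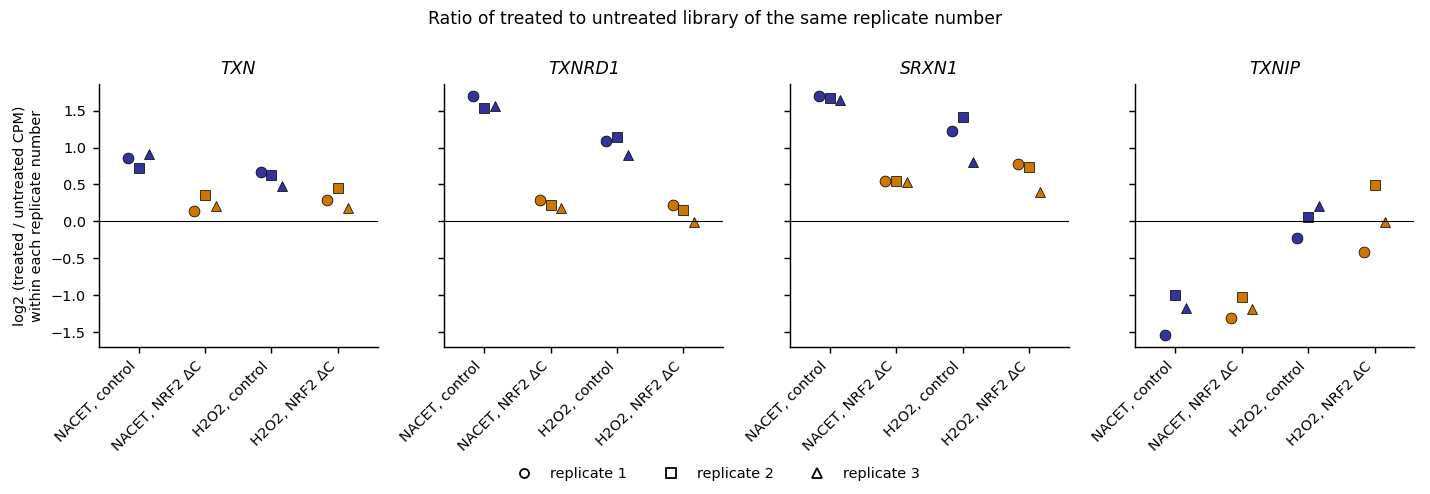
Log2 ratio of the CPM of a treated library to that of the untreated library with the same replicate number, for TXN, TXNRD1, SRXN1 and TXNIP, by treatment and cell line on the x axis; each point is 1 replicate number. The TXNRD1 ratios with NACET are 1.54 to 1.69 in control cells and 0.18 to 0.29 in NRF2 ΔC cells, whereas the TXNIP ratios with NACET are -1.53 to -1.001 and -1.31 to -1.02.

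Whether the 2 lines answered a treatment differently was tested as an interaction, the log2 fold change in control cells minus that in NRF2 ΔC cells, over 12 libraries and called on the adjusted p alone. For NACET it was called for TXNRD1, at 1.39 ± 0.14 SE (edgeR adjusted p = 0.00377), the only one of the 10 genes, where 0.0643% of 14002 genes were called. The interaction of SRXN1 was 1.15 ± 0.22 SE (adjusted p = 0.172), and that of TXN 0.63 ± 0.28 SE (adjusted p = 1). With the replicate number as a block within each line, which fits the deviations shared by libraries of a number, TXN (0.63, adjusted p = 0.000552), SRXN1 (1.15, adjusted p = 2.87e-07) and TXNRD1 (1.39, adjusted p = 1.93e-07) were called, where 0.9% of genes were called. TXNIP had an interaction of -0.01 ± 0.52 SE (adjusted p = 1). With the block within each line it was -0.02 ± 0.13 SE (edgeR adjusted p = 0.981). The fit with that block leaves 4 residual degrees of freedom per gene and borrows 12.1 from the other genes.

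For H2O2 none of the 10 genes passed the interaction test, where 0.0214% of 13987 genes were called. At an unadjusted p under 0.05 there were 3, and DESeq2 called 1 (TXNRD1), where it called 0.396% of genes. The value for TXNRD1 was 0.93 ± 0.17 SE (edgeR adjusted p = 0.121), that for SRXN1 0.54 ± 0.24 SE (adjusted p = 0.848). With the block within each line TXNRD1 (0.93, edgeR adjusted p = 3.78e-05), SRXN1 (0.52, adjusted p = 0.0274) and PRDX5 (-0.37, adjusted p = 0.0457) were called, where 6.91% of genes were called. This fit too leaves 4 residual degrees of freedom per gene, and it borrows 13.8 from the other genes.

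The peroxiredoxins were called with neither NACET nor H2O2 in either line, in 24 tests of 6 genes in 4 comparisons. The lowest adjusted p among these was 0.269, none had an unadjusted p under 0.05, and neither DESeq2 nor the block called any. In the same 4 comparisons (NACET then H2O2, control then ΔC cells), DESeq2 called 3.17%, 5.36%, 3.14% and 9.39% of all genes and the block 7.49%, 10.2%, 8.82% and 18.7%. In control cells the log2 fold changes lay between -0.15 and 0.34 with NACET and between -0.15 and 0.22 with H2O2. In NRF2 ΔC cells they lay between -0.23 and 0.12 with NACET and between -0.09 and 0.20 with H2O2.

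PRDX1, at chr1:45976586-46008404 on the minus strand, is the main cytosolic peroxiredoxin. In control cells it had 369, 494 and 509 CPM untreated, 498, 558 and 664 CPM with NACET and 486, 555 and 550 CPM with H2O2. The treated ranges overlapped the untreated one (log2 0.34 ± 0.16 SE with NACET, edgeR adjusted p = 0.276; 0.22 ± 0.14 SE with H2O2, adjusted p = 0.317). Within each replicate number both treated libraries were higher. The block gave small edgeR adjusted p for both (6.41e-07 and 0.00211), with log2 values of 0.34 and 0.23 that were under the fold limit. Both fits leave 2 residual degrees of freedom per gene. The NACET fit borrows 382 from the other genes, so its p rests mostly on their spread and little on that of PRDX1. The H2O2 fit borrows 14.1.

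PRDX6, at chr1:173446469-173457954 on the plus strand, reduces peroxides with a single cysteine and uses glutathione rather than thioredoxin. Its level was 483, 425 and 597 CPM in untreated control cells and 398, 394 and 551 CPM with NACET. The treated library was lower in each replicate number (log2 ratios -0.28, -0.11 and -0.12), but the ranges overlapped (log2 -0.15 ± 0.17 SE, edgeR adjusted p = 0.678). In ΔC cells it was also lower within each number, with log2 ratios of -0.33, -0.06 and -0.25.

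PRDX2 (chr19:12907634-12912614, minus strand) is cytosolic, and PRDX3 (chr10:120927232-120938324, minus strand) is mitochondrial. Over all 18 libraries PRDX2 ranged from 188 to 268 CPM and PRDX3 from 213 to 285 CPM. PRDX5 (chr11:64085593-64089283, plus strand), found in several compartments, ranged from 195 to 286 CPM. With H2O2 its control libraries (195, 204 and 221 CPM) fell just below the untreated ones (223, 238 and 230 CPM), while the ΔC libraries (246, 246 and 286 CPM) were above theirs (232, 216 and 219 CPM). Neither difference passed (log2 -0.15 ± 0.09 SE, edgeR adjusted p = 0.269, and 0.20 ± 0.13 SE, adjusted p = 0.334). PRDX4 (chrX:23682379-23704514, plus strand), the peroxiredoxin of the endoplasmic reticulum, was called between the lines with H2O2, as described next to the other line comparisons.

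**Figure D3:**
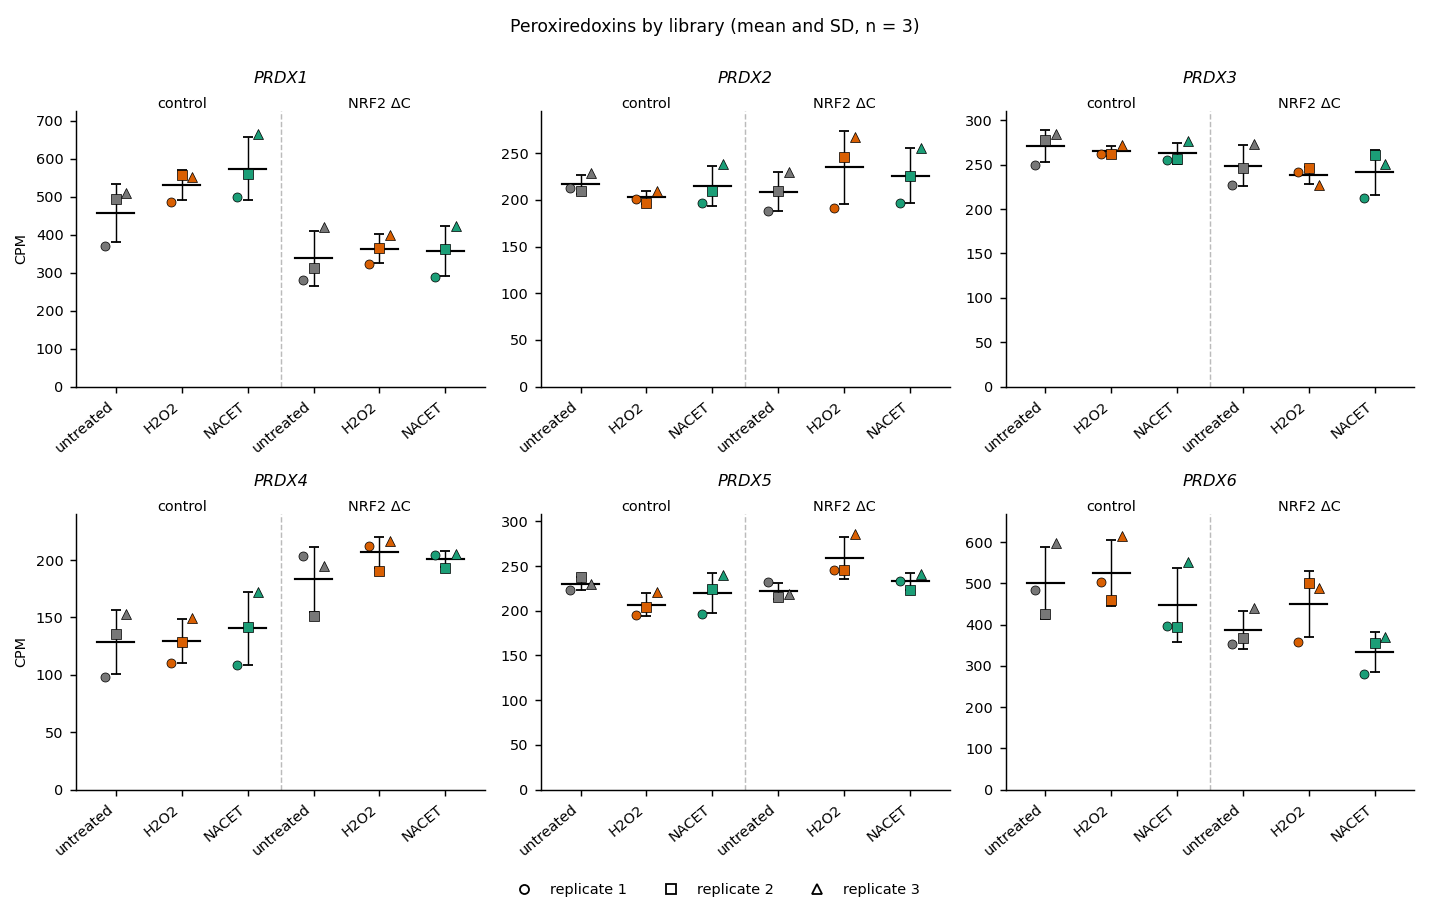
CPM of PRDX1 to PRDX6 in each of the 18 libraries, laid out as for thioredoxin, with the mean and SD of 3 per group. Within each line the treated ranges overlap the untreated one, except for PRDX5 with H2O2; with H2O2 PRDX4 spans 191 to 217 CPM in NRF2 ΔC cells and 110 to 149 CPM in control cells.

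The lines were also compared under each condition. Untreated, 1 of the 10 genes was called between NRF2 ΔC and control cells, where 3.85% of 13710 genes were called and 3.12% were called as lower. This was TXNRD1, at 602 ± 45.8 CPM (SD, n = 3) against 1008 ± 89.1 CPM, 0.60-fold (log2 -0.75 ± 0.12 SE, edgeR adjusted p = 0.0105). It was not called without replicate 2 of either group (adjusted p 0.0134 to 0.068 over the 6 fits). TXN (log2 -0.04 ± 0.17 SE, adjusted p = 0.946) and SRXN1 (log2 -0.02 ± 0.15 SE, adjusted p = 0.967) had nearly equal means in the untreated lines.

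With NACET 3 of the 10 genes were called between the lines, all lower in NRF2 ΔC, where 4.76% of 13627 genes were called and 3.86% were called as lower. TXNRD1 was at 0.23-fold of its level in control cells (log2 -2.14 ± 0.11 SE, edgeR adjusted p = 4.82e-05) and SRXN1 at 0.44-fold (log2 -1.18 ± 0.14 SE, adjusted p = 0.00265). PRDX1 was at 0.61-fold (log2 -0.72 ± 0.16 SE, adjusted p = 0.0451), with 288, 362 and 421 CPM in ΔC cells, all below the control libraries. Its call held only without ΔC replicate 3 among the 6 fits with a library removed (log2 -0.84 to -0.58, adjusted p 0.0483 to 0.211). TXN had a log2 difference of -0.67 ± 0.18 SE, without overlap, that did not pass (adjusted p = 0.0796).

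With H2O2 2 of the 10 genes were called between the lines, where 5.62% of 13580 genes were called, 1.41% as higher and 4.2% as lower. TXNRD1 was at 0.31-fold in NRF2 ΔC (log2 -1.69 ± 0.14 SE, edgeR adjusted p = 0.000211). PRDX4 was 1.58-fold higher, with 212, 191 and 217 CPM against 110, 129 and 149 CPM (log2 0.66 ± 0.14 SE, adjusted p = 0.0233), a call lost without replicate 1 or 2 of the control or replicate 2 or 3 of the ΔC libraries (log2 0.54 to 0.75 over 6 fits, adjusted p 0.00707 to 0.124). PRDX4 had higher means in ΔC also untreated (204, 151 and 195 against 98.3, 135 and 153 CPM, log2 0.51 ± 0.18 SE, adjusted p = 0.243) and with NACET (log2 0.49 ± 0.16 SE, adjusted p = 0.148). PRDX1 under H2O2 had a ΔC minus control log2 difference of -0.57 ± 0.13 SE (adjusted p = 0.0353), short of the fold limit, and untreated one of -0.44 ± 0.18 SE (adjusted p = 0.321).

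**Figure D4:**
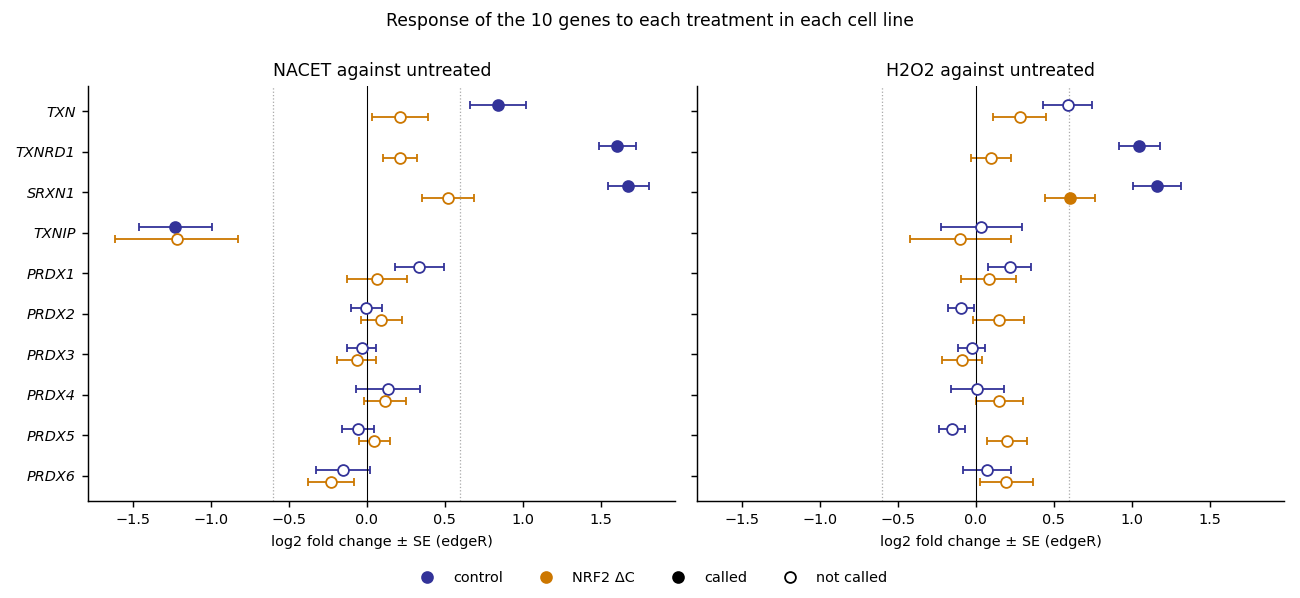
Log2 fold change with its SE for the 10 genes, NACET against untreated on the left and H2O2 against untreated on the right, in control and NRF2 ΔC cells; filled points were called and dotted lines mark the fold limit of 0.6. TXN, TXNRD1 and SRXN1 have larger values in control cells, the TXNIP points with NACET lie at -1.23 and -1.22, and all peroxiredoxins lie between -0.23 and 0.34.

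To compare levels between genes, mean CPM was divided by the length of the reference (MANE) transcript in kb. In untreated control cells PRDX1 was the most abundant of the 10 genes at 484 CPM per kb, followed by PRDX6 (297), PRDX5 (268), TXNRD1 (261), PRDX2 (235), PRDX3 (174.5), TXN (148) and PRDX4 (135). SRXN1 (38.8 CPM per kb) and TXNIP (20.4 CPM per kb) were far below. With NACET in control cells TXNRD1, at 790 CPM per kb, was above PRDX1 at 607, and SRXN1 reached 123. In NRF2 ΔC cells with NACET TXNRD1 was at 183 CPM per kb, below PRDX1 (378), PRDX5 (271), PRDX2 (244.5), PRDX4 (210) and PRDX6 (198). GENCODE lists pseudogenes named after TXN (7), PRDX2 (4), PRDX3 (4), PRDX1, PRDX4 and PRDX5 (1 each). Reads that also match such a copy were not counted, so these levels may be too low. In GENCODE exons of PRDX1 share bases with MMACHC. If the annotation used for counting shares them too, reads wholly within those bases cannot be assigned to either gene.

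The order of the 6 groups differed between the genes. For TXNRD1 it ran from untreated, H2O2 and NACET in ΔC cells to untreated, H2O2 and NACET in control cells, and neighbouring groups overlapped only at the lowest step, untreated and H2O2 in ΔC cells. For SRXN1 both untreated groups were lowest and overlapped, followed by the ΔC groups with NACET and H2O2, which overlapped, and the control groups with H2O2 and NACET, which met at 272 CPM. The TXN groups overlapped at every step. For TXNIP the NACET groups of both lines were lowest, overlapped each other, and were separate from the next group up, H2O2 in ΔC cells. Both NACET groups overlapped the untreated ΔC group, whose lowest library was at 26.4 CPM. These are levels across a bulk culture, where fewer cells with the transcript and less of it per cell cannot be told apart.

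Genes whose pattern was most like that of a member were ranked by the root mean square difference of centred log2(CPM + 1) over the 18 libraries, as a description. For TXNRD1, whose own root mean square deviation was 0.89, they were GCLM (0.24), PIR (0.24) and FTL (0.25). For SRXN1 (own deviation 0.63) they were UNKL (0.25), GSR (0.26) and SLC48A1 (0.27). GCLM is a subunit of the enzyme that makes the glutathione precursor, FTL is ferritin light chain, and GSR is glutathione reductase. TXN (0.38) was nearest to GLA (0.12), PITHD1 (0.15) and AIFM2 (0.16). PRDX1 (0.35) was nearest to TALDO1 (0.14), an enzyme of the pentose phosphate pathway, UCHL1 (0.14) and LOC80054 (0.17). LOC80054 had a mean of only 0.737 CPM, a level at which the added 1 damps differences. TXNIP (0.70) had no close companion, its nearest being DMRTA1 (0.38), KCP (0.40) and TLE4 (0.40).

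Other genes of the same chemistry were counted beside the share of all genes called, which with NACET was 2.75% in control and 1.39% in ΔC cells and with H2O2 6.33% and 9.81%. Of 19 further thioredoxins, thioredoxin reductases and glutaredoxins, all 19 were tested and none was called with NACET in either line (edgeR; 3 had an unadjusted p under 0.05 in each line, and DESeq2 called 0). With H2O2 GLRX, the cytosolic glutaredoxin, fell in control cells (log2 -0.60 ± 0.15 SE, adjusted p = 0.0359, not called by DESeq2) and in ΔC cells (log2 -1.06 ± 0.27 SE, adjusted p = 0.0407), and TXNDC16 fell in ΔC cells (log2 -0.65 ± 0.16 SE, adjusted p = 0.0326). The median log2 fold change of the list in control cells was 0.06 after NACET and 0.10 after H2O2, beside -0.0057 and -0.0038 over all genes tested.

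Among 10 enzymes and signalling proteins that thioredoxin reduces or binds, MAP3K5, a kinase held inactive by thioredoxin, rose with NACET in control cells (log2 1.37 ± 0.22 SE, edgeR adjusted p = 0.0225), where H2O2 raised it too (log2 0.96 ± 0.21 SE, adjusted p = 0.0235), at a mean of only 2.29 CPM untreated. In ΔC cells MAP3K5 had 1.95, 3.18 and 3.83 CPM untreated and 5.39, 8.30 and 7.85 CPM with NACET, without overlap (log2 1.24 ± 0.28 SE, edgeR adjusted p = 0.0711), and its NACET interaction was 0.13 ± 0.37 SE (adjusted p = 1). RRM2B, a p53-induced ribonucleotide reductase subunit, rose with H2O2 in control cells (log2 0.74 ± 0.11 SE, adjusted p = 0.00571) and in ΔC cells (log2 0.88 ± 0.20 SE, adjusted p = 0.0281). With NACET the RRM2B libraries lay below the untreated ones without overlap, and it was not called. They had 59.3 to 91.7 against 96.5 to 124 CPM in control and 67.0 to 119 against 126 to 183 CPM in ΔC cells. Groups did not overlap there for 26.5% of all genes in control and 25% in ΔC cells. No other gene of this list was called by edgeR with a treatment. DESeq2 called 1 of the list with NACET in ΔC cells, where it called 3.14% of genes.

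The sestrins, stress proteins that were linked to peroxiredoxin repair, rose with H2O2. Of 3, SESN3 was too low to test. SESN2 rose from 21.4 ± 1.84 to 72.0 ± 7.86 CPM (SD, n = 3) in control cells (log2 1.75 ± 0.12 SE, edgeR adjusted p = 0.000836) and from 27.2 ± 1.43 to 205 ± 79.0 CPM in ΔC cells (log2 2.89 ± 0.27 SE, adjusted p = 0.00146). SESN1 rose by log2 values of 0.96 ± 0.09 SE and 1.25 ± 0.16 SE (adjusted p = 0.00128 and 0.00386). With NACET neither was called; SESN1 had a log2 fold change of -0.56 ± 0.10 SE in control cells (adjusted p = 0.0303), under the fold limit, and DESeq2 called 0 of the sestrins in control and 1 in ΔC cells.

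None of the 8 relatives of TXNIP and of the Mondo and MLX factors that drive TXNIP was called with either agent by edgeR or DESeq2. In each of these comparisons 6 were tested, of which 1 (NACET) and 3 (H2O2) had an unadjusted p under 0.05 in control cells and 0 in ΔC cells. Of all genes, 2.75% and 1.39% were called with NACET and 6.33% and 9.81% with H2O2, in control and ΔC cells. ARRDC4 shares the glucose response of TXNIP and was named after its values were seen. With NACET in control cells, where TXNIP fell, its log2 fold change was -0.04 ± 0.18 SE (edgeR adjusted p = 0.929). With H2O2 in control cells ARRDC4 had 32.8 to 39.2 CPM against 21.5 to 29.8 CPM untreated, without overlap, but was not called. The H2O2 and untreated ranges of ARRDC4 overlapped in ΔC cells. In ΔC cells ARRDC4 was lower with NACET in each of the 3 replicate numbers (33.9, 12.8 and 16.0 CPM untreated, 22.5, 11.2 and 11.9 CPM treated), with overlapping ranges (log2 -0.46 ± 0.41 SE, edgeR adjusted p = 0.601). Of 5 genes that place selenocysteine into proteins such as TXNRD1, all were tested and 1 was called with a treatment. This was SEPHS2 with H2O2 in ΔC cells (log2 0.86 ± 0.14 SE, edgeR adjusted p = 0.0078), where 9.81% of all genes were called and 4.26% as higher. In control cells SEPHS2 had 60.8 to 63.5 CPM untreated and 89.8 to 102 CPM with H2O2, without overlap, but was not called.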

How the data were processed

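PolyA RNA libraries (TruSeq v2) were sequenced single-end. The authors aligned the reads to hg19 using TopHat (2.1.0 in the submitters' processing notes), counted reads per gene with HTSeq-count (0.11.2) without regard to strand, leaving out reads with several places, and removed ribosomal RNA genes. The gene annotation is not given in the sources used here. They deposited whole-number counts per symbol. The 5 summary lines of each file name no gene and were left out of all totals and fits. Reads outside genes were 15.0 to 17.52% of a library, reads with several places 8.24 to 10.4% and ambiguous reads 0.955 to 1.18%. Replicates of a group always differed beyond counting noise, so the spread between replicates limits precision more than depth does.

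From the counts, edgeR 4.0.16 (R 4.3.3; filterByExpr, TMM, quasi-likelihood test, Benjamini-Hochberg over all genes tested) was fitted to the libraries of each of 9 pairs of groups and over 12 libraries for each of 2 interactions. Calls needed an adjusted p under 0.05 and, for pairs, 0.6 or more up or down on the log2 scale. Alternatives were DESeq2 1.42.0, RLE normalization, no filter, 1 fit of all 18 libraries, the replicate number as a block (for interactions also within each line), no fold limit and leaving out each library. Libraries with the same number deviated together within a line (correlation of deviations from the group means 0.471 to 0.876 over the within-line comparisons) ; between lines replicates 1 and 3 did (0.596 to 0.781) and replicate 2 did not (-0.264 to -0.041), so the numbers were not taken to pair the lines. The labels give the numbers without saying what they mark. Tests were tried on simulated counts. Genes named are the 10 members, NFE2L2, list genes called with a treatment and, for 5 members, the 3 nearest patterns; ARRDC4 was named after its values were seen. The members and lists were chosen with earlier results of these data known. Positions and transcript lengths are from GENCODE (v44 lifted to GRCh37) and sequences from GRCh37. One marker gene of another cell type and one sequence window are not reported here.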

Additional observations from a re-analysis of the deposited data

Results flagged for a closer look

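One result stood out by the test of a difference between the cell lines. The log2 fold change of TXNRD1 with NACET was 1.39 higher in control than in NRF2 ΔC cells (1.61 against 0.21, SE of the difference 0.14, edgeR adjusted p = 0.00377). Its log2 ratios within replicate numbers were 1.54 to 1.69 in control and 0.18 to 0.29 in ΔC cells. The numbers were not taken to pair the lines. No group here has more than 3 libraries, so single libraries were not screened for extremes.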

How the results depend on the processing

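Of 570 single-gene log2 values of the 10 genes under alternatives other than removing a library, 538 kept direction and call, 11 reversed, 2 lost and 19 gained a call. The 11 were values near 0 that the text does not give singly. The count of called genes stayed within 1.5 times of that reported with these exceptions. With NACET in NRF2 ΔC cells it was 0, and 1 (TXNIP) with DESeq2 or the replicate block. For NACET against H2O2 in ΔC cells it was 0, and 1 with DESeq2, without the filter, in 1 fit of all 18 libraries and with the replicate block. In control cells it was 1, and 2 without the fold limit. For the NACET interaction it was 1, against 2 with DESeq2 and 3 with the replicate block or the block within each line. For the H2O2 interaction it was 0, against 1 with DESeq2, the fit of all 18 libraries or the replicate block and 3 with the block within each line. Between lines replicates 1 and 3 deviated together (correlations 0.596 to 0.781) but replicate 2 did not (-0.264 to -0.041), and there the block kept the count within 1.5 times. TXNIP with NACET in control cells was not called in the fit of all 18 libraries (edgeR adjusted p = 0.0567). The cause of these shifts was not tested.

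Removing each library in turn gave counts of 2 to 3 for NACET in control cells (4 with all), 0 to 1 for H2O2 in ΔC cells (1), 0 to 1 between untreated lines (1), 1 to 2 between lines with H2O2 (2), 0 to 1 for NACET against H2O2 in control cells (1) and 0 to 1 in ΔC cells (0). Of the 110 fold changes 38 reversed in some such fit, all with values from -0.21 to 0.14 with all libraries. Those given in the text are TXNIP with H2O2 (-0.29 to 0.22 in control cells, -0.41 to 0.27 in ΔC cells) and its NACET interaction (-0.37 to 0.30), PRDX4 with NACET in ΔC cells (-0.0034 to 0.21), and TXN (-0.19 to 0.058) and SRXN1 (-0.12 to 0.093) between the untreated lines.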
